A study of Mus musculus with 5 samples.

Results

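Malat1 and Neat1 are long noncoding RNAs of the nucleus, and their Argonaute clusters were described here in 5 tables of mouse liver. Rows were taken wherever the gene column named either RNA, which gave 2558 of 3254259 entries and 2 of 22714 gene names. Malat1 had 866 entries and Neat1 had 1692. Each entry is a stretch of RNA inside an Ago-bound cluster that matches the seed (bases 2 to 8) of a miRNA found in the same table, so an entry is a predicted pairing and not a measured one.

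The tables come from Ago HITS-CLIP, in which RNA is crosslinked to protein with UV light, pulled down with antibodies to Argonaute, the protein that carries miRNAs, and sequenced. Whole livers of C57BL/6 mice (C57BL/6J in the study's methods) were taken from embryos (e12.5, e15.5 and e18.5, named by the day of gestation), from pups on day 7 after birth (P7) and from adult mice, and all were crosslinked 3 times at 254 nm and 0.2 J/cm2. The embryonic livers were precipitated with 2 Ago2 antibodies. At P7 and in adult an Ago1 antibody was added, so the postnatal stages and the added antibody cannot be told apart. Values in a row below run from the youngest stage to the oldest. The methods speak of 2 biological replicates, but the labels give 1 sample a stage, so no test between stages was possible and no p-value is given; intervals are 95% Wilson intervals and cover counting error only. Because whole liver was used, fewer cells of a type and less RNA per cell cannot be told apart.

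Malat1 is known as one of the most abundant transcripts of mammalian nuclei and gathers in nuclear speckles, bodies rich in splicing factors. A small cytoplasmic RNA that folds like a tRNA, mascRNA, is cut from its 3' end. Neat1 is the scaffold of paraspeckles, and it is made as a short isoform and as a long isoform that share their 5' part, of which the long one builds the paraspeckle. Argonaute acts mostly in the cytoplasm on mRNAs, so nuclear RNAs are not its classical targets, and the Ago clusters on them were counted here without a claim on their effect.

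Both genes lie on the minus strand of chromosome 19 in GRCm38 (mm10). Malat1 spans chr19:5795690-5802672, 6983 nt, and Neat1 spans chr19:5824708-5845478, 20771 nt, with 22035 bases between the genes, both as annotated by GENCODE M21 and RefSeq. Positions below count from the 5' end of each RNA. The short Neat1 isoform ends at nt 3183, and mascRNA covers nt 6692 to 6749 of Malat1.

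The sites that the results turn on are printed 5' to 3' as the deposited target fragments, with the matched bases in capitals, the A opposite base 1 included where the site type has it. The deposited interval of the 8mer below is 1 base shorter than its capitals. A 6mer pairs with bases 2 to 7 of the miRNA, a 7mer-m8 with bases 2 to 8, a 7mer-A1 has an A opposite base 1 in place of the pair at base 8, and an 8mer has both. On Malat1, the first pair below lies in the one position that all 5 tables listed, the site after it in the highest position, the following pair in the highest position of the adult table, and the last site in mascRNA.
Malat1 nt 1385, miR-455-3p, 7mer-A1, chr19:5801282-5801288: ggtgaagctaggaaGGACTGA
Malat1 nt 1394, miR-149-5p, 7mer-m8, chr19:5801273-5801279: ctaggaaggactgagGAGCCAGc
Malat1 nt 1436, miR-106b-3p, 6mer, chr19:5801232-5801237: gatagcccaggaaagAGTGCGg
Malat1 nt 5258, miR-150-5p, 7mer-m8, chr19:5797409-5797415: tctggtgaggggggTTGGGAGc
Malat1 nt 5263, miR-148a-3p, 7mer-A1, chr19:5797404-5797410: tgaggggggttgggaGCACTGA
Malat1 nt 6707, miR-122-5p, 6mer, chr19:5795961-5795966: gacgctggtggctggCACTCCt

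On Neat1, the sites shown are all 7 of miR-122-5p, the hepatocyte miRNA, followed by the site listed in 4 tables and by sites of let-7c-5p and miR-451a.
Neat1 nt 6057, miR-122-5p, 7mer-m8, chr19:5839416-5839422: ttttgtggtcagatACACTCCg
Neat1 nt 6775, miR-122-5p, 7mer-A1, chr19:5838698-5838704: actgacgttttcttcCACTCCA
Neat1 nt 6878, miR-122-5p, 6mer, chr19:5838596-5838601: gagtctgtgtcacagCACTCCt
Neat1 nt 13391, miR-122-5p, 6mer, chr19:5832083-5832088: agttttctttatcagCACTCCt
Neat1 nt 13839, miR-122-5p, 6mer, chr19:5831635-5831640: acacattgtgcttggCACTCCt
Neat1 nt 18020, miR-122-5p, 6mer, chr19:5827454-5827459: gagaatagaaatCACTCCg
Neat1 nt 19613, miR-122-5p, 7mer-A1, chr19:5825860-5825866: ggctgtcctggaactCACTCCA
Neat1 nt 14347, miR-140-3p, 7mer-m8, chr19:5831126-5831132: tgaggtagcagttCTGTGGTt
Neat1 nt 10786, let-7c-5p, 8mer, chr19:5834687-5834693: ggcggtcctacctcCTACCTCA
Neat1 nt 14834, let-7c-5p, 7mer-m8, chr19:5830639-5830645: cgagcccctgttgaCTACCTCt
Neat1 nt 9556, miR-451a, 7mer-A1, chr19:5835917-5835923: aaaaccttcatgaggACGGTTA

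The mature miRNAs that pair with these sites are printed from RefSeq (GRCm38.p6) with the seed in capitals, where its table held them. Of 655 miRNAs with a site on either RNA, 552 were found there by name and 546 had the same letters as deposited.
miR-455-3p: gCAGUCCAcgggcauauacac
miR-149-5p: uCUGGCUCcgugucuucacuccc
miR-106b-3p: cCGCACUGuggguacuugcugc
miR-148a-3p: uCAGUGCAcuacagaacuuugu
miR-140-3p: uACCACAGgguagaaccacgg
let-7c-5p: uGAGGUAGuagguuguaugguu
miR-451a: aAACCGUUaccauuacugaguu

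Clusters on Neat1 were numerous at e12.5 and in adult and few between these stages. From e12.5 to adult Neat1 had 159, 9, 4, 23 and 83 clusters, where clusters that overlapped by at least 1 base were joined. For Malat1 the numbers were 52, 20, 13, 37 and 36. The tables differ in size, so the share of all joined clusters was taken too. Of every 10000 clusters, Neat1 held 7.64 at e12.5 (6.54 to 8.92) and 10.2 in adult (8.25 to 12.7). In the stages between, it held 1.11 (0.584 to 2.11), 0.520 (0.202 to 1.34) and 1.84 (1.23 to 2.77). The intervals of e12.5 and adult lay above those of the other 3 tables without overlap. Malat1 held between 1.69 (0.987 to 2.89, e18.5) and 4.43 (3.20 to 6.14, adult) of every 10000, and its intervals overlapped between all pairs of tables except this one.

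Ranked by listed clusters, with the clusters of both lists counted, Neat1 was number 14 of 19061 genes at e12.5 and number 6 of 13969 in adult. In the tables between these it was number 1222, 3584 and 640. Malat1 stayed between number 94 (adult) and number 541 (e18.5). The median gene of a table had between 2 and 4 clusters.

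By reads Neat1 was again highest at e12.5 and in adult, here with e12.5 above adult, and Malat1 varied less. Reads of a gene are the summed highest read numbers of its clusters, given here per 1000000 of the table's summed cluster reads (RPM). From e12.5 to adult Neat1 stood at 338, 40.3, 20.4, 23.9 and 110.2 RPM. In order of level the tables ran e12.5, adult, e15.5, P7 and e18.5, and the counting intervals of P7 (21.6 to 26.4) and e18.5 (18.1 to 23.0) were the only ones of Neat1 to overlap. Malat1 stood at 99.1, 88.6, 65.3, 54.5 and 42.6 RPM, with counting intervals that did not overlap. Summed highest read numbers are no independent counts, so these intervals do not give the spread of a level. The e12.5 interval of Malat1 was 96.2 to 102.1, while the 2 lists of that table, described below, gave 156 and 71.3 RPM. Per kb of RNA, the e12.5 levels were 14.2 RPM for Malat1 and 16.3 RPM for Neat1, whereas at e18.5 they were 9.35 and 0.981.

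From e12.5 to e15.5 Neat1 fell by 3.07 on the log2 scale, past the 2-fold that 21.1% of 13297 genes in both tables passed downward and 23.6% upward. It lay at the 2.93 percentile of these genes. From P7 to adult the log2 change of Neat1 was 2.21, where 10.3% of 12428 genes rose at least 2-fold and 42.8% fell, and it lay at the 97.4 percentile. The changes in between were smaller. From e15.5 to e18.5 Neat1 changed by -0.98, while 28.8% of genes rose at least 2-fold and 27.5% fell. From e18.5 to P7 it changed by 0.23, while 19.9% rose and 35.6% fell.

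Malat1 passed 2-fold at none of these 4 steps. Its log2 changes ran from -0.44 to -0.16 and its percentiles among all genes from 39.6 to 62.0. From e12.5 to adult Malat1 changed by -1.22 and Neat1 by -1.62, while 51.6% of 12447 genes fell at least 2-fold, 18.9% rose and the median gene changed by -1.08.

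**Figure D1:**
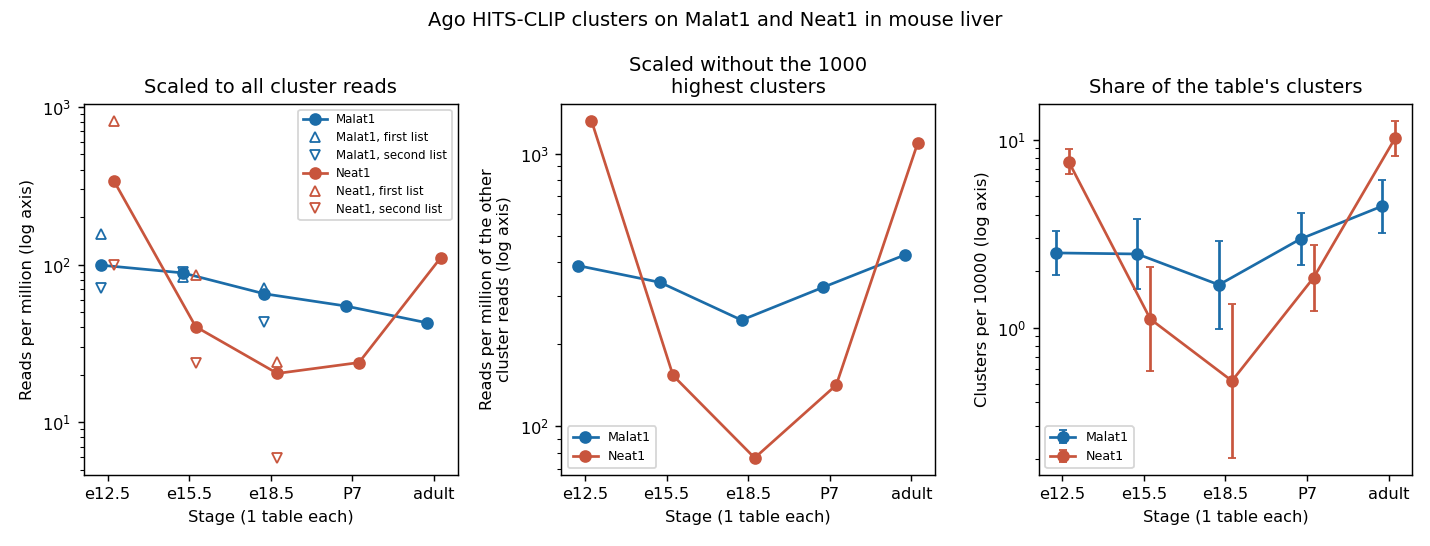
Levels of Malat1 (blue) and Neat1 (red) at 5 stages, 1 table each, all on log axes. Left, RPM over all cluster reads, with open triangles for the 2 lists inside each embryonic table; middle, RPM over the cluster reads left after the 1000 highest clusters; right, clusters per 10000 of the table with 95% Wilson intervals. Neat1 is high at e12.5 and in adult in all panels, and its lists at e12.5 lie at 821 and 99.97.

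The e12.5 level of Neat1 came mostly from 1 part of its table. In each of the embryonic tables the order of miRNAs starts over once, so the table holds 2 lists of clusters that the labels do not explain. The study lists a further e18.5 library and no further one for e12.5 or e15.5. Which libraries the lists hold is not given in the sources used here, so they were given side by side and not tested. At e12.5 Neat1 had 821 RPM in the first list and 99.97 in the second, and the adult value lay between them. Malat1 had 156 and 71.3 in the same lists. The lists gave Neat1 85.8 and 23.7 RPM in the e15.5 table and 24.2 and 5.93 in the e18.5 table, so both values of e12.5 lay above these 4. By number of clusters the lists of e12.5 were closer, with 96 and 102 clusters on Neat1, or 14.6 and 6.16 of every 10000.

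The scaling of the reads mattered most for the direction of Malat1. The 1000 highest clusters of a table held 73.4% to 90.0% of its reads. Per 1000000 of the reads outside them, Malat1 stood at 389, 338, 245, 324 and 426 from e12.5 to adult, and Neat1 at 1326, 154, 76.6, 142 and 1101. On this scale the log2 change from e12.5 to adult was 0.13 for Malat1, turning its sign, and -0.27 for Neat1, while the median gene moved by 0.27. The share of genes that rose and fell at least 2-fold on this scale was 36.7% and 26.6% from e12.5 to adult, 22.6% and 23.8% from P7 to adult, and 30.7% and 21.04% from e18.5 to P7. Taken relative to the median gene, the changes are the same on both scales. Malat1 then changed by -0.13 and Neat1 by -0.53 from e12.5 to adult, and Neat1 by -3.16 from e12.5 to e15.5 and by 2.97 from P7 to adult.

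Cell type markers moved with the stages. Of the hepatocyte markers, 10 of 10 were listed in every table and their summed level ran from 1058 RPM at e12.5 to 11541 in adult. Of 11 erythroid markers, 7 were listed from e12.5 to P7 and 6 in adult, with summed levels between 34508 and 96153 up to P7 and 1632 in adult. The near-identical alpha globin copies Hba-a1 and Hba-a2 carried almost the same reads, 29796 RPM each at e12.5, so this sum counts such reads in both copies. Macrophage markers ranged from 17.2 (e12.5, 3 of 6 listed) to 239 (e18.5), and endothelial markers, 5 of 5 in every table, from 25.2 (e12.5) to 220.3 (P7). None of these sums was high at both ends and low between them as Neat1 was, and their part in the levels of Malat1 and Neat1 was not tested.

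Positions listed in more than 1 table were a larger part of those on Malat1 than of those on Neat1. Joined over all tables, Malat1 had 96 positions, of which 35 were listed in at least 2 tables, 15 in at least 3, 6 in at least 4 and 1 in all 5. Neat1 had 219 positions, of which 48 were listed in at least 2 tables, 8 in at least 3, 1 in 4 and 0 in all 5. Tables with few clusters limit these counts, since Neat1 had 4 positions at e18.5. For these counts and the shared ones below, no share over all genes was taken. Whether either RNA departs from the usual overlap of the tables is thus not known. In order of age, positions found in a further table held 66.9%, 79.8%, 91.3%, 74.8% and 74.1% of the reads of Malat1. For Neat1 the shares were 33.6%, 89.6%, 98.1%, 71.3% and 62.3%, so Neat1 was lower than Malat1 at e12.5, P7 and in adult and higher at e15.5 and e18.5.

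Between e12.5 and adult, Neat1 shared 34 positions, 21.4% of its 159 at e12.5 and 41.5% of its 82 in adult. For Malat1 it was 13 positions, 26.0% of 50 and 37.1% of 35. The 2 lists inside the e12.5 table shared 39 positions of Neat1, 40.6% of the first and 38.2% of the second. On Malat1 they shared 11, which was 57.9% of the first and 26.2% of the second.

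The single Malat1 position found in every table covered nt 1355 to 1406 (chr19:5801267-5801318). It held 42, 85, 15, 16 and 15 reads in order of age. Its sites for miR-149-5p and miR-455-3p, printed above, were listed in all 5 tables. Neither miRNA was abundant by the number deposited in its entry name, taken here as its reads: in the e12.5 and adult tables miR-455-3p made up 0.0145% and 0.0311% of miRNA reads and miR-149-5p 0.00601% and 0.00485%.

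Downstream of it, at nt 1425 to 1468 (chr19:5801205-5801248), lay the highest position on Malat1. From e12.5 to P7 its reads were 752, 333, 300 and 132, and the adult table did not list it. In RPM it stood at 16.8, 20.2 and 23.1 before birth and at 8.0 at P7. Sites of miR-106b-3p, miR-130b-5p and miR-145a-3p were listed there in all 4 tables, and miR-106b-3p was the most abundant of them, with 0.261% of miRNA reads at e12.5 and 0.00846% in adult.

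The other high positions on Malat1 had most of their reads before birth. The position at nt 2060 to 2066 had 9, 56 and 195 reads in the embryonic tables and was absent from the P7 and adult lists. At nt 5088 to 5172 there were 159 and 223 reads in the youngest tables and 30 in adult. A short one at nt 139 to 145 had 175 reads at e15.5 and was listed nowhere else. At nt 230 to 286 the e12.5, e15.5 and P7 tables had 417, 131 and 30 reads, and the e15.5 and P7 tables list a site of miR-144-3p, an erythroid miRNA, at nt 260 there. In adult the highest position was nt 5246 to 5270, with 119 reads there, 81 at P7, 13 at e18.5 and 136 at e12.5. That position holds the printed sites of miR-150-5p and of miR-148a-3p, which share their 4 tables.

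When Malat1 was cut into 5 equal parts, the stretch from nt 1398 to nt 2793 carried 44 of 158 clusters over the 5 tables, 27.8% (21.4 to 35.3), and the stretch from nt 5587 to the 3' end 16, 10.1% (6.33 to 15.8). These intervals take the clusters as independent, though a position counts once in each table that lists it. Table by table, the interval of the first stretch held the 20.0% of an equal part in every table. That of the 3' stretch did so in each table but e15.5, with 0 of 20 (0 to 16.1%). This 3' stretch had 8, 0, 0, 5 and 3 clusters from e12.5 to adult. One position, nt 6696 to 6715, fell inside mascRNA, with 37 reads at e12.5 and 30 at P7. It was the only Malat1 position with a miR-122-5p site, and that site had a conservation value of 1.0.

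**Figure D2:**
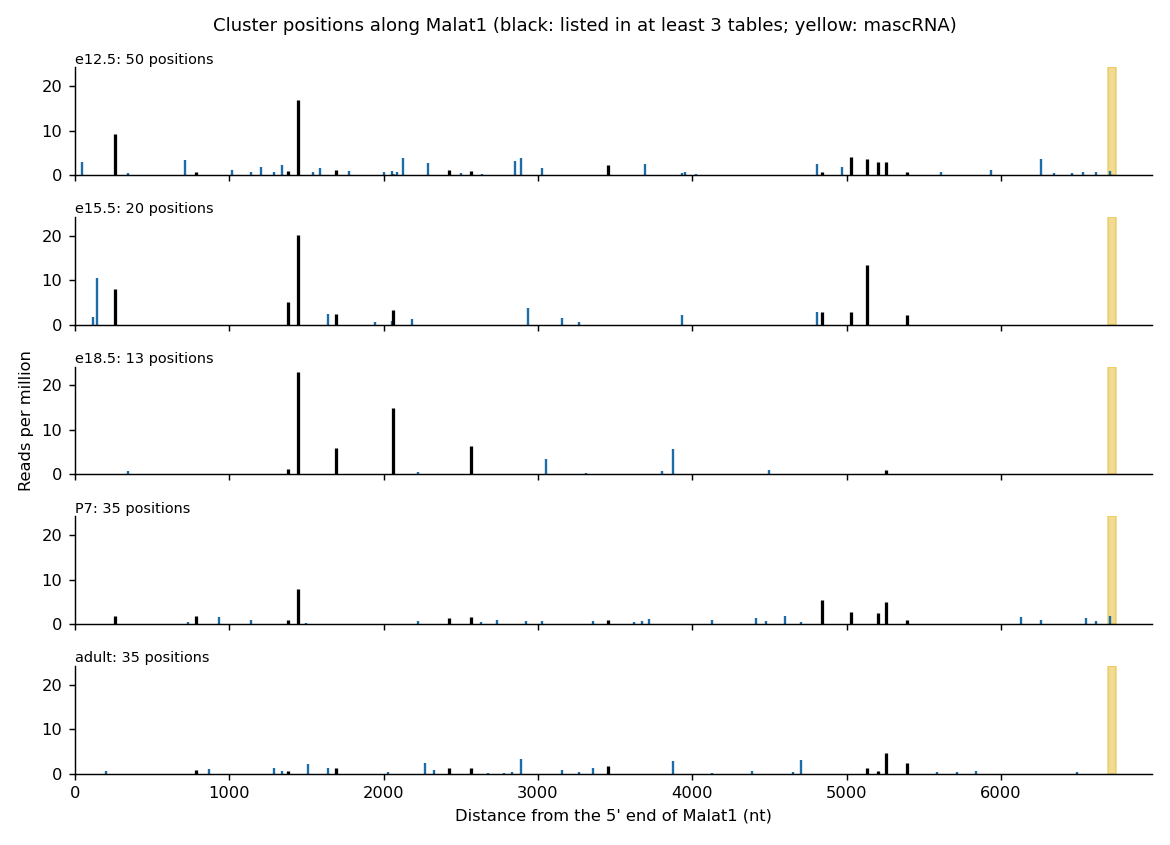
Cluster positions along Malat1 in 5 tables. The horizontal axis gives nt from the 5' end and each line the RPM of a position; black lines are positions listed in at least 3 tables, and the yellow band is mascRNA. The line near nt 1440 is the highest from e12.5 to P7, between 8.0 and 23.1, and is missing in adult.

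On Neat1 no position dominated at e12.5, where the 5 highest held 11.4% of its reads, compared with 33.1% in adult. Both tables spread clusters over the whole RNA. The part shared with the short isoform is 15.3% of the length. It carried 60 of 278 clusters over the 5 tables, 21.6% (17.2 to 26.8), and the part of the long isoform alone carried 218. This interval takes the clusters as independent, though a position counts once in each table that lists it. Table by table the interval held 15.3% in each table but P7, with 7 of 23, 30.4% (15.6 to 50.9). At e12.5 the shared part had 33 of 159 clusters and 29.7% of the reads, and in adult 16 of 83 and 11.2% of the reads. By annotation the long part belongs to the long isoform alone, and whether reads mapped uniquely was not tested; 50 entries on Malat1 or Neat1 name another gene too.

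The highest position on Neat1 was found after birth. It covered nt 19562 to 19663 (chr19:5825816-5825917), with 441 reads in adult and 39 at P7, and was not listed in the embryonic tables. The position at nt 13821 to 13854 had 245 reads at e15.5 and 94 in adult. Both of these hold a miR-122-5p site. At nt 9544 to 9593 the embryonic tables had 26, 224 and 86 reads and the later ones none, and its miR-451a site was listed in the same 3 tables. A pair of positions near the 5' end, at nt 864 to 898 and nt 1665 to 1776, had 408 and 363 reads at e12.5 and 14 and 38 in adult. The one position listed in 4 tables, nt 14313 to 14353, had 128, 87, 53 and 85 reads in the tables other than e15.5, and its miR-140-3p site was present in each.

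**Figure D3:**
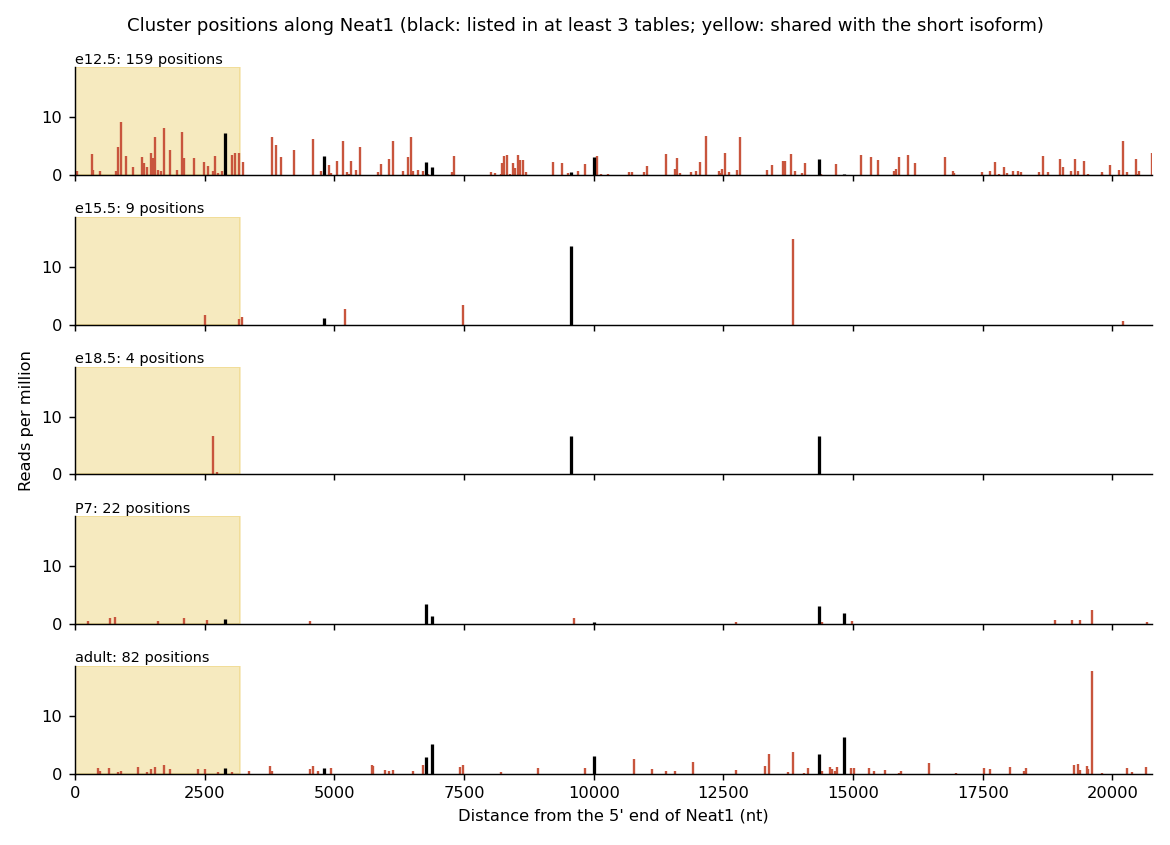
Cluster positions along Neat1 in 5 tables, drawn as RPM against nt from the 5' end. Black lines are positions listed in at least 3 tables, and the yellow band is the part shared with the short isoform. The e12.5 and adult tables hold 159 and 82 positions along the whole RNA, against 9, 4 and 22 in the other tables.

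Shares of miRNA reads below take the number deposited in each miRNA's entry name as its reads, which no source used here states. Of the 12 abundant miRNAs that the study followed, 9 had a site on Neat1 and 6 on Malat1. The hepatocyte miRNA miR-122-5p had 7 sites on Neat1, of which 4 were 6mers and 3 matched 7 bases, and 7 of 7 lay past the end of the short isoform. The tables listed 2, 1, 0, 3 and 7 of them in order of age. Over the same tables miR-122-5p made up 1.44%, 4.33%, 9.20%, 12.3% and 11.2% of miRNA reads, and the e18.5 table, without a site, held 5 listed clusters on Neat1. The site at nt 6878 was the only one seen at 3 stages, with 66 reads at e12.5, 23 at P7 and 127 in adult, and the site at nt 19613 had 15 at P7 and 220 in adult.

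In adult 7 of 83 Neat1 clusters held a miR-122-5p site, 8.43% (4.15 to 16.4), against 4.30% of all 81194 clusters. At P7 it was 3 of 23, 13.04% (4.54 to 32.1), against 3.56%, and at e12.5 it was 2 of 198 listed clusters, 1.01% (0.277 to 3.61), against 0.874%. The adult interval reached down to the share of all clusters, the P7 interval lay above it, and the e12.5 interval spanned it. In adult 0 of 36 Malat1 clusters held such a site (0 to 9.64%).

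Sites of let-7c-5p, a miRNA of differentiated tissue, were listed on Neat1 at P7 (1) and in adult (2). The share of 0 at e12.5 (0 of 198, 0 to 1.90%) did not differ from the 0.575% of all clusters beyond its interval, and the other embryonic tables had 11 and 5 Neat1 clusters. The adult share was 2 of 83 clusters, 2.41% (0.663 to 8.37), against 2.10% of all clusters. The site at nt 14834 had 31 reads at P7 and 160 in adult, and the 8mer at nt 10786 had 64 in adult. Malat1 had no let-7c-5p site. Both sites of miR-194-5p on Neat1 were found in adult, 2.41% of clusters (0.663 to 8.37) against 1.02% of all clusters. Sites of miR-16-5p numbered 2, 2, 0, 1 and 0 on Malat1 and 3, 0, 0, 1 and 2 on Neat1 from e12.5 to adult. This miRNA made up 3.49% of miRNA reads at e12.5 and 14.04% in adult. Adult sites lay in 0 of 36 Malat1 clusters (0 to 9.64%) and 2 of 83 on Neat1, 2.41%, against 3.98% of all. Of miR-26a-5p, with 1.04% at e12.5 and 3.79% in adult, Neat1 had 1 site, at e12.5, and Malat1 had 1, in adult. Both of its cluster shares had intervals that held the share of all clusters.

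For miR-451a, made in red blood cell precursors, Neat1 had 3, 1 and 1 sites in the embryonic tables and 0 later, while the miRNA fell from 6.98% of miRNA reads at e12.5 to 0.722% in adult. At e12.5 this was 3 of 198 clusters, 1.52% (0.517 to 4.36), against 0.870% of all clusters. The 0 of 83 clusters in adult (0 to 4.42%) and 0 of 23 at P7 (0 to 14.3%) stood against 0.184% and 0.338% of all clusters, inside both intervals. In the e15.5 table it was 2 of 11 clusters, both from 1 site that is in each of the lists, or 18.2% (5.14 to 47.7) against 1.47% of all clusters. In the e18.5 table it was 1 of 5, or 20.0% (3.62 to 62.4) against 0.745%. Both of these intervals lay above the share of all clusters, on 2 clusters and 1 cluster. The erythroid miR-144-3p had 2 sites on Malat1, listed at e12.5, e15.5 and P7, and 1 on Neat1 at e12.5. For Malat1 this was 1 of 64 clusters at e12.5, 1.56% (0.276 to 8.33) against 1.38% of all clusters, 2 of 22 in the e15.5 table, 9.09% (2.53 to 27.8) against 2.41%, and 2 of 37 at P7, 5.41% (1.495 to 17.7) against 1.24%. The intervals of e15.5 and P7 lay above the share of all clusters, on 2 clusters each. For Neat1 it was 1 of 198 at e12.5, 0.505% (0.0892 to 2.80), which holds the share of all clusters. The most abundant miRNA of the first tables, miR-142-3p of blood cells, with 32.2% of miRNA reads at e12.5, had no site on either RNA. It had one in 0.872% of all clusters at e12.5, a share inside the intervals for 0 of 198 Neat1 clusters (0 to 1.90%) and 0 of 64 Malat1 clusters (0 to 5.66%). The same was true of miR-92a-3p, with 0.602% of all clusters.

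**Figure D4:**
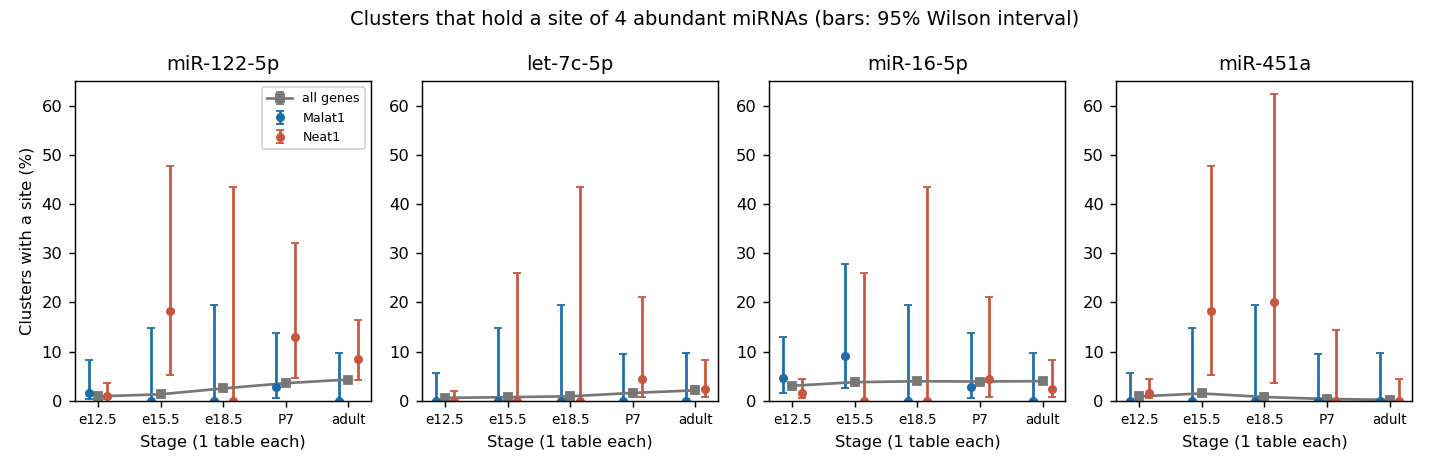
Percentage of clusters that hold a site of the miRNA named above each panel at each stage, for all genes (grey), Malat1 (blue) and Neat1 (red), with 95% Wilson intervals over listed clusters. The Neat1 share for miR-122-5p was 8.43% in adult and 13.04% at P7; the e15.5 share of 18.2% is 1 site found in both lists of that table, and the wide embryonic intervals come from 5 and 11 clusters.

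By seed family, Malat1 had sites of 285 families and Neat1 of 449. On Malat1, 4 families were listed in all 5 tables, those of miR-200b-3p with miR-200c-3p and miR-429-3p, of miR-149-5p, of miR-378a-5p and of miR-455-3p, and on Neat1 0 were. Families are named here if they had a site in at least 3 tables and a miRNA among the 100 most abundant of 1 of these, at most 10 per RNA. Among them miR-421-3p had the most positions on Malat1, 5, with 4 of them in adult and 2 in each of the youngest tables. The miR-200b family used a different position at different stages, nt 715 at e12.5, nt 253 at e15.5 and P7, and nt 3868 at e18.5 and in adult. The other named families, each with 3 positions on Malat1, were miR-320-3p, miR-181, miR-300-3p, miR-139-5p, miR-143-3p, miR-103 with miR-107, miR-192-3p and miR-335-3p.

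On Neat1 the family of miR-140-3p and miR-497b led with 8 positions, 6 of them listed at e12.5 and 3 in adult. The families of miR-122-5p and miR-27 followed with 7 each. The miR-27 family had 7 positions at e12.5 and 1 in adult, and its share of clusters was 4.04% at e12.5 (2.06 to 7.77, 8 of 198) against 2.08% of all clusters. In adult it was 1.20% (0.213 to 6.51, 1 of 83) against 2.76%, and both intervals held the share of all clusters. Named families with 6 positions were miR-15 with miR-16, miR-455-3p, miR-103 with miR-107 and miR-673-5p. Those with fewer were miR-7 and miR-31-5p with 5 and miR-136-5p with 4. Families with related seeds share positions, as miR-27 and miR-673-5p do at nt 1297 and nt 4793.

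Over the 5 tables, 40.5% of Malat1 clusters (33.2 to 48.3, 64 of 158) and 44.6% of Neat1 clusters (38.9 to 50.5, 124 of 278) held a site of 1 of the 100 most abundant miRNAs of the table. For all clusters it was 41.8%, inside both intervals, where a position counts once in each table that lists it. With a site that recurs over the tables counted once, 49.6% of the sites on Malat1 (45.3 to 53.9) and 55.2% on Neat1 (52.4 to 58.0) were 6mers, against 53.5% for other lincRNAs. Sites of 7mer-A1 type were more frequent on Malat1, 23.7% (20.2 to 27.5), than on Neat1, 15.7% (13.7 to 17.8), and other lincRNAs had 15.8%. Full 8mers made up 7.31% (5.37 to 9.87) and 6.36% (5.13 to 7.87), against 8.22% for other lincRNAs. A site here is a miRNA with its match, so a place matched by several miRNAs counts for each of them. The intervals take these sites as independent, which they are not.

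Sites on Malat1 had higher conservation values than sites on Neat1. The tables give each site a conservation value between 0 and 1. Counted once over the tables, the median was 0.721 over 520 sites on Malat1 and 0.007 over 1226 sites on Neat1, and over 3916 sites in exons of other lincRNAs it was 0.05. Over 71133 sites listed in noncoding exons of any gene it was 0.995, so over all tables Malat1 lay above the other lincRNAs and below this wider set. At least 0.9 was reached by 40.6% of sites on Malat1, 3.02% on Neat1, 22.1% on other lincRNAs and 68.6% in the wider set. Table by table the medians ran from 0.686 to 0.919 for Malat1 and from 0.001 to 0.028 for Neat1. For the other lincRNAs they were, in order of age, 0.085, 0.264, 0.261, 0.052 and 0.716. In adult Malat1 and the other lincRNAs were close, with medians of 0.75 and 0.716 and with 42.0% and 41.9% of sites at 0.9 or more. The 11 Neat1 sites printed above had values from 0.0 to 0.395, the highest for miR-122-5p at nt 6878. Sites of one RNA overlap, so they are no independent sample and no test was made.

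**Figure D5:**
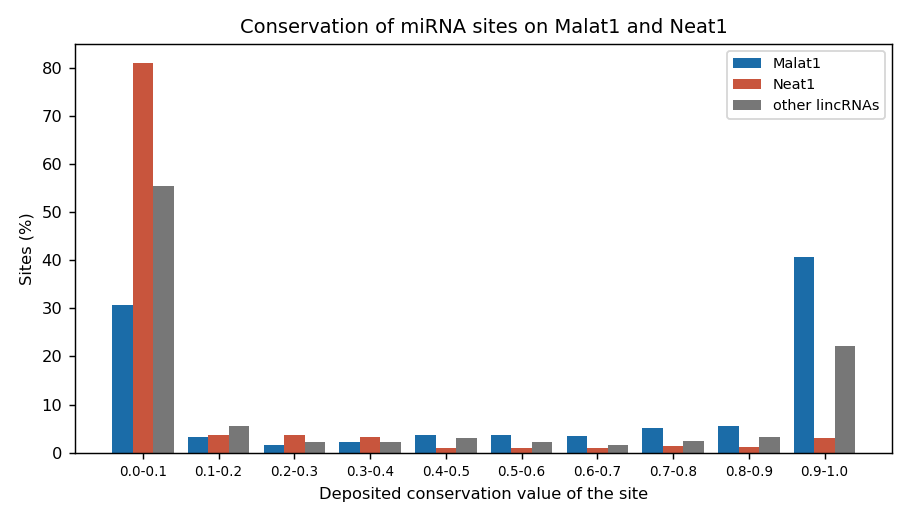
Percentage of miRNA sites by their deposited conservation value, in bins of 0.1, for Malat1 (blue, 520 sites), Neat1 (red, 1226) and other lincRNAs (grey, 3916), each site counted once over the 5 tables. Of Neat1 sites, 80.9% fall at or below 0.1 and 3.02% at or above 0.9, against 30.8% and 40.6% of Malat1 sites.

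Among 9082 genes listed in all 5 tables, the course of Malat1 was most like that of Zbtb41, with a root mean square difference of 0.0462 in centred log2 RPM, where the median gene had 0.843. Gm2962, Tecr, Park7 and mmu-miR-148b-5p came next, with differences up to 0.116. Neat1 was most like Mcu, the channel of the mitochondrial calcium uniporter, at 0.359, followed by Clybl, Eif2b1, Txndc9 and Prkcz at up to 0.611, where the median gene had 1.82. Mcu stood at 30.6, 3.45, 3.07, 2.12 and 10.7 RPM, so its lowest table was P7 and not e18.5. These genes are the nearest of 9082 over 5 values and are given as a description.

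Clusters on mRNAs for proteins of the bodies that these RNAs belong to were mostly lower in RPM in adult than at e12.5. Of 18 paraspeckle proteins, 17 were listed both at e12.5 and in adult, of which 15 fell at least 2-fold and 1 rose, with a median log2 change of -2.80. Among all genes 51.6% fell and 18.9% rose. Of 18 nuclear speckle proteins 14 fell, 0 rose and the median was -2.14. From P7 to adult 0 paraspeckle and 0 speckle proteins rose 2-fold, while 11 of 17 and 13 of 18 fell, against 42.8% of all genes. Among 20 other long noncoding RNAs listed at both ends, 17 fell, 2 rose and the median was -1.86; the median of all genes was -1.08. Scaled without the 1000 highest clusters, where 26.6% of all genes fell and 36.7% rose, 11 of the 17 paraspeckle proteins fell and 1 rose (median -1.45), 6 of the 18 speckle proteins fell and 1 rose (-0.79), and 9 of the 20 noncoding RNAs fell and 3 rose (-0.51). On that scale, from P7 to adult, 5 of 17 paraspeckle and 5 of 18 speckle proteins fell and 1 of each rose, against 23.8% and 22.6% of all genes. Xist, the RNA of the inactive X chromosome, which is also nuclear, stood at 25.1, 46.9, 21.2, 9.15 and 11.4 RPM from e12.5 to adult. Some of these noncoding RNAs, Dleu2, Mirg and Ftx among them, carry miRNA genes, and their summed reads include those. Which others do was not worked out.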

How the data were processed

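Ago HITS-CLIP tables of 5 liver samples, 1 per stage, were used. Per the labels and the methods, the authors crosslinked and precipitated Ago-bound RNA, mapped reads with Bowtie (builds mm9 and mm10 are named, version not given in the sources used here) and scanned clusters for seed matches. The deposited read signal is the highest read number of a cluster and is at least 5; the deposited conservation fraction runs from 0 to 1, and the deposited duplex energy is a score. All 2558 target fragments on the members equalled GRCm38.

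Entries with the same list and peak number formed a cluster, which is bounded here by its sites. Overlapping clusters were joined, and reads were scaled to the summed cluster reads of a table (RPM), which ran from 13008703 to 44867326. Alternatives were other scalings (library totals given by the study, miRNA reads), each list alone, and stricter clusters or sites. A 2-fold change was called. Members and gene lists were chosen with earlier results of these data known. Named positions are those listed in all 5 tables and the 5 highest per RNA; named families had a site in 3 tables and an abundant miRNA (100 per table), at most 10 per RNA; further positions and sites were picked after their values were seen. Likeness used log2 of RPM plus 1. The fold change step was tested on simulated data. Python 3.11.15 and pandas 2.3.3 were used.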

Additional observations from a re-analysis of the deposited data

How the results depend on the processing

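No paired analysis was possible because each stage has 1 sample and the labels tie no samples of different stages together. Each stage is 1 table and its lists are not labelled as replicates, so the spread between livers is unknown, and a cluster is listed only where it has a seed match and at least 5 reads. The deposited reads are a cluster's highest read number, so levels weigh high clusters.

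The changes below are log2. From e12.5 to adult Malat1 changed by -1.22 and by -0.91 with library read totals, -1.91 with summed miRNA reads, -1.87 with the first list only, -0.74 with the second, -0.88 with sites of at least 7 matched bases, -1.11 by the highest cluster and 0.13 without the 1000 highest clusters, where its sign turned. In the same order Neat1, at -1.62, gave -1.31, -2.31, -2.90, 0.14, -1.27, 0.77 and -0.27; its sign turned with the second list and by the highest cluster. From e18.5 to P7 Malat1, at -0.26, gave 0.21 with library totals, -0.55 with miRNA reads, 0.34 with the second list, 0.13 with 7 bases, -1.24 by the highest cluster and 0.40 without the 1000 highest; Neat1, at 0.23, gave 0.70, -0.059, -0.016 with the first list, 2.01 with the second, -0.95 by the highest cluster and 0.89. Library totals took the e18.5 library alone; with the study's further e18.5 library added, Malat1 gave 2.60 and Neat1 3.09. Whether the deposited table holds that library is not given in the sources used here. From e12.5 to e15.5 Neat1, at -3.07, gave -3.26 with the first list, -2.08 with the second and 0.58 by the highest cluster, where its sign turned. From P7 to adult Neat1, at 2.21, gave 2.38 with at least 10 reads a cluster, 1.87 with miRNA reads, 2.01 with 7 bases, 2.05 by the highest cluster and 2.96 without the 1000 highest. Taking the highest cluster alone leaves out the number of clusters by construction; for the other alternatives the cause was not tested. In the other 39 comparisons of an alternative with its result, the value kept its count or stayed inside the counting interval of the result.

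Malat1 positions in all 5 tables numbered 0 with either list alone and 3 where clusters within 25 bases were joined; for Neat1 it was 0 under all 7 alternatives. With sites of at least 7 matched bases the share of clusters with an abundant miRNA was 25% for Malat1 and 31.1% for Neat1. The scaling without the 1000 highest clusters, the joining within 25 bases, the added e18.5 library and the changes from e12.5 to e15.5 and from P7 to adult were added after seeing the data.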
